A study of Mus musculus with 2 samples.

Results

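The keratin genes encode the intermediate filament proteins of epithelial cells. They were taken as every probe for a transcript whose gene name on the array was Krt followed by a number, which leaves out the keratin-associated proteins. This gave 55 genes with 69 probes, of 37007 genes on the array, and each gene was represented by its brightest probe. The cells were epithelial cells of the submandibular gland, a major salivary gland, collected on magnetic beads for EpCAM (CD326), an adhesion molecule of epithelial cells. They came from female mice of the C57BL/6 strain, either 9 weeks old (young) or 24 months old (aged), with no treatment named in the labels. RNA of each age was labelled with Cy3 and hybridized to 1 Agilent array of 60-base probes, both arrays on the same slide. Per the methods of the study, young mice came from a commercial breeder and aged mice from an institute's own facility, so that age and source cannot be told apart.

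Keratins work in pairs. An acidic type I keratin and a basic to neutral type II keratin join as a heterodimer, from which the filament is built, and each kind of epithelium is known by the pair it makes. Krt8 and Krt18 form the filaments of simple epithelia such as the secretory and ductal cells of glands, with Krt7 and Krt19 added in ducts. Krt5 and Krt14 are made in basal layers and, in salivary glands, in basal duct and myoepithelial cells. Krt6a, Krt16 and Krt17 are induced in injured or fast-growing epithelia and are made in skin appendages. Krt1, Krt2 and Krt10 belong to the upper epidermis, while the hair keratins and those of the inner root sheath build the hair shaft and its casing. Most type I genes lie in a single cluster and most type II genes in another. Here all 27 genes with a probe on chromosome 11 were type I, between positions 99095480 and 100128311 of mm9. Chromosome 15 held 27 more, of which 25 were type II, between positions 101178889 and 101862400. The exceptions on chromosome 15 were Krt18, a type I gene whose probe lies 35.1 kb from that of Krt8, and Krt88, which was left unclassified. The Krt85 probe had no position in the files.

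Since an array reads a keratin only through its probe, the probes of 3 genes detected on 1 array only, and that of the duct keratin Krt7, are printed here on the sense strand. The 4 lines belong to genes that were measured on both arrays (Krt7) or left or entered the detectable range between them (Krt19, Krt73 and Krt74).
Krt7 probe (mm9, chr15:101253718-101253777, + strand): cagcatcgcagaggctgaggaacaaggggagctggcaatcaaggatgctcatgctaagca
Krt19 probe (mm9, chr11:100002392-100002451, - strand): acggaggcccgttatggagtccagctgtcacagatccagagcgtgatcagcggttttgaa
Krt73 probe (mm9, chr15:101624401-101624460, - strand): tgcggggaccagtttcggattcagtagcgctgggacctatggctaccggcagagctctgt
Krt74 probe (mm9, chr15:101584822-101584881, - strand): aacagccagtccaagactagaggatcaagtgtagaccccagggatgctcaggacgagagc
The probe of the hair keratin Krt81, not shown, also matches transcripts of Krt83 and Krt86 in the files' own list of accessions, and the Krt87 probe those of Krt83. The Krt81 signal is therefore uncertain as to gene.

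The deposited signal is a background-subtracted intensity in arbitrary units. It was divided by the 75th percentile of the array, 256 for young and 198 for aged cells, and compared on the log2 scale as aged minus young. The ± after a difference is the error propagated from the scanner software's own error of each spot. It covers the spot and not the mice, and each keratin probe had 1 spot. With 1 array per age neither a replicate check nor a test between the ages was possible, and a 2-fold difference, as in the methods of the study, was used only to sort genes by size. In such bulk RNA, fewer cells of a type and less RNA per cell cannot be told apart.

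Of the 55 keratin genes, 24 were well above background on both arrays, 2 on the aged array only, 4 on the young array only and 25 on neither. The 30 genes detected on at least 1 array were 54.5% of the keratins, and over all genes the share was 57.7%. For both arrays the shares were 43.6% and 50.7%. Of all 37007 genes, 485 were detected on the aged array only and 2116 on the young array only, so more genes of any kind were detected on the young array alone. None of the 24 genes measured on both arrays was 2-fold higher or 2-fold lower on the aged array. Over all 18745 genes measured on both, 1.52% passed 2-fold upwards in aged cells and 3.05% downwards. The 24 differences ran from -0.81 (Krt15) to 0.81 (Krt17), with a median of 0.20 beside 0.09 over all genes. The median size of the difference, 0.27, was that of all genes, 0.27. In direction, 20 were above 0 and 4 below (Krt15, Krt16, Krt78 and Krt79), where 59.9% of all genes measured on both were above 0. This split rests on the scaling. Before division by the 75th percentiles, 16 of the 24 signals were lower on the aged array, and with the spike-in controls taken as equal between the arrays 10 were higher and 14 lower.

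**Figure D1:**
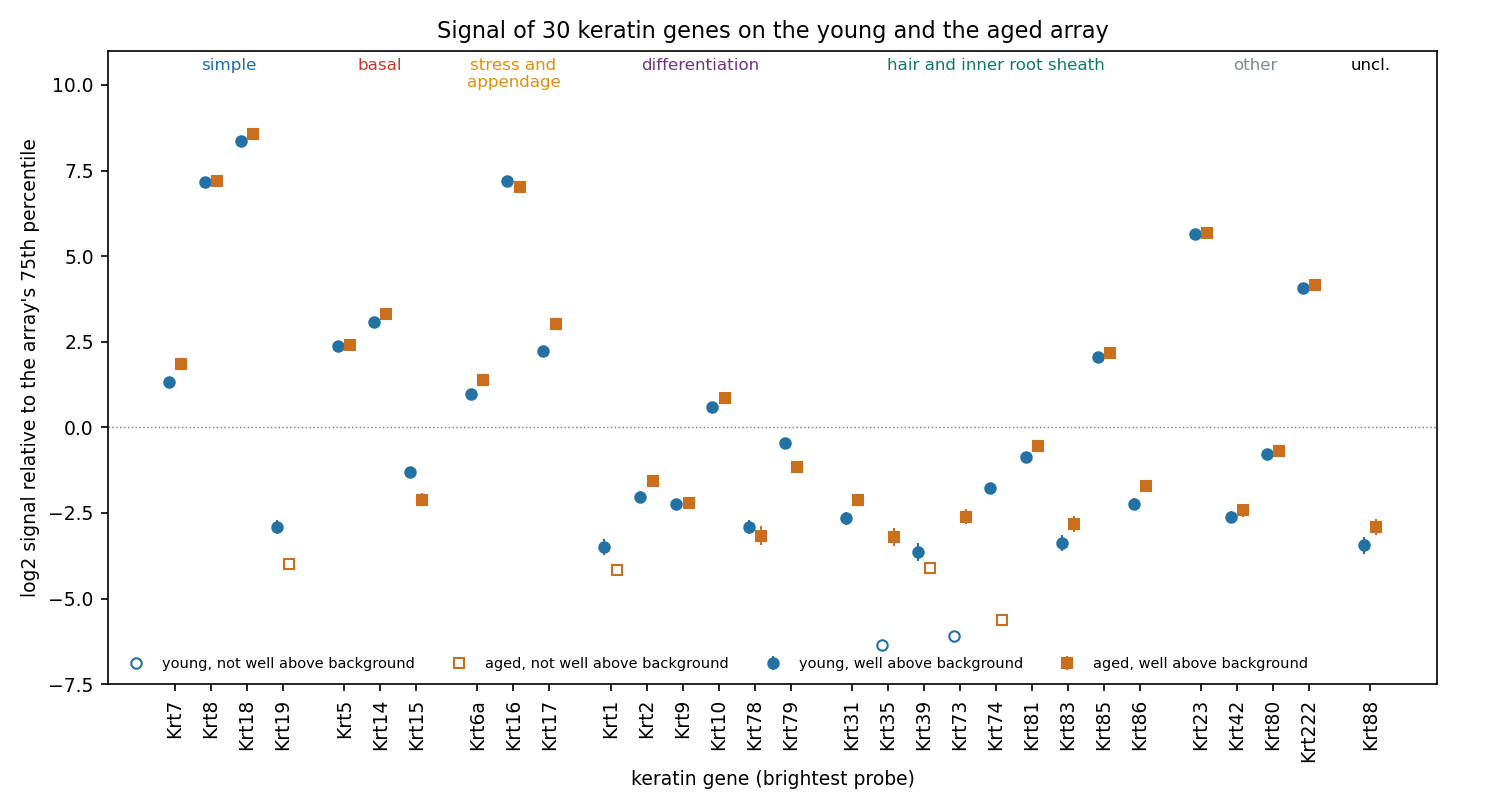
Signal of the 30 keratin genes detected on at least 1 array, as log2 relative to the array's 75th percentile (vertical axis), by class. Blue circles are the young and orange squares the aged array, open marks were not well above background, and bars are the scanner software's error. For the 24 genes with filled marks on both arrays the marks lie within 0.81 of each other, and open marks appear for 6 genes, among them Krt19, Krt73 and Krt74.

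The simple keratins, which are the filaments of the gland's own secretory and ductal cells, showed small differences for Krt8 and Krt18, a higher value for Krt7 and a loss of detection for Krt19. Krt8, the type II member, gave a signal of 36987 in young and 29215 in aged cells, a scaled difference of 0.03 ± 0.20. A second Krt8 probe gave 25313 and 19343, a difference of -0.02. Krt18, its type I partner, gave 84625 and 75885, a difference of 0.21 ± 0.20. Krt18 thus stood 0.18 ± 0.29 above Krt8 in difference, and this gap ranged from 0.09 to 0.21 over 7 scalings. The pair therefore differed little from each other, while its common level depended on the scaling: Krt8 ran from -0.53 by loess to 0.21 by median centring and Krt18 from -0.44 to 0.39 under the same scalings. Krt7, a type II keratin of duct cells, gave 635 and 711, a difference of 0.54 ± 0.20, and stayed above 0 under all 7 scalings (0.28 to 0.71). Krt19, a type I keratin of ducts, gave 34.2 in young cells, well above background, and 12.4 in aged cells, where it was not. It was at least 1.85-fold lower, short of the 2-fold mark. Krt20, known from gut and bladder epithelium, was above background on neither array.

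Among basal keratins the main pair differed little and another member was lower. Krt5 gave 1326 in young and 1047 in aged cells, a difference of 0.03 ± 0.20. Its partner Krt14 gave 2162 and 1980, a difference of 0.25 ± 0.20. The gap between the partners was 0.21 ± 0.29. Over the 7 scalings Krt5 ran from -0.23 to 0.21 and Krt14 from -0.03 to 0.42. Krt15, another type I keratin of basal cells, gave 104 in young and 45.9 in aged cells, a difference of -0.81 ± 0.24. It was below 0 under all 7 scalings, from -1.06 with the spike-in controls, the single value past 2-fold among the 24 genes under any of them, to -0.28 after normexp background correction. Against Krt5 the gap of Krt15 was -0.84 ± 0.31, and it was -0.27 after normexp, whose added offset of 50 draws differences of dim probes towards 0. Krt15 and Krt19, both lower on the aged array, are neighbours on chromosome 11, with probes 9.00 kb apart. The next member on the Krt19 side, Krt9, had a difference of 0.04.

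The keratins of stress and of skin appendages gave values in different directions. Krt17, a type I keratin induced in wounded epithelium, gave 1191 in young and 1613 in aged cells. Its difference of 0.81 ± 0.20, or 1.75-fold, was the highest of the 24 genes at this scaling, and it stayed between 0.55 and 0.98 over the 7 scalings. By quantile normalization Krt83 was higher, at 0.70, than Krt17, at 0.67. The type II partner Krt6a gave 505 and 516, a difference of 0.40 ± 0.20. Krt16, which also pairs with Krt6a, gave 37513 and 25669, a difference of -0.18 ± 0.20. A second Krt16 probe, for the same transcript, gave 421 and 398 and a difference of 0.29, so the probes of Krt16 differ in direction and in how bright they were. The direction of Krt16 is thus uncertain. Its brighter probe was below 0 under all 7 scalings, from -0.74 by quantile normalization to -0.00 by median centring. Krt6b and Krt75 were above background on neither array.

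Of the keratins of differentiating, stratified epithelium, 5 of 12 were measured on both arrays and 1 on the young array only. Krt79, found in sebaceous and upper hair follicle ducts, gave 185 in young and 89.2 in aged cells. Its difference of -0.68 ± 0.21 was below 0 under all 7 scalings (-0.94 to -0.44). Its neighbour on chromosome 15, Krt78, gave 34.2 and 22.1, a difference of -0.26 ± 0.34 that changed sign after normexp. Both were lower on the aged array at the main scaling, though for Krt78 the difference was within its error. The epidermal keratins gave other values. Krt10 gave 387 and 360, a difference of 0.27 ± 0.21, Krt2 gave 62.9 and 66.2, a difference of 0.45 ± 0.23, and Krt9, the keratin of palm and sole, gave 53.8 and 42.8, a difference of 0.04 ± 0.24. The Krt1 probe that was kept gave 22.9 in young and 10.99 in aged cells, at least 1.24-fold lower. That probe lies on the opposite strand to the other Krt1 probe, which was at 3.55 and 3.57, not above background. Whether the kept probe reads the Krt1 transcript is therefore uncertain, though the gene is counted here as detected on the young array. Krt4 and Krt13, the pair of the oral lining, were above background on neither array, nor were Krt12, Krt24, Krt76 and Krt77.

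**Figure D2:**
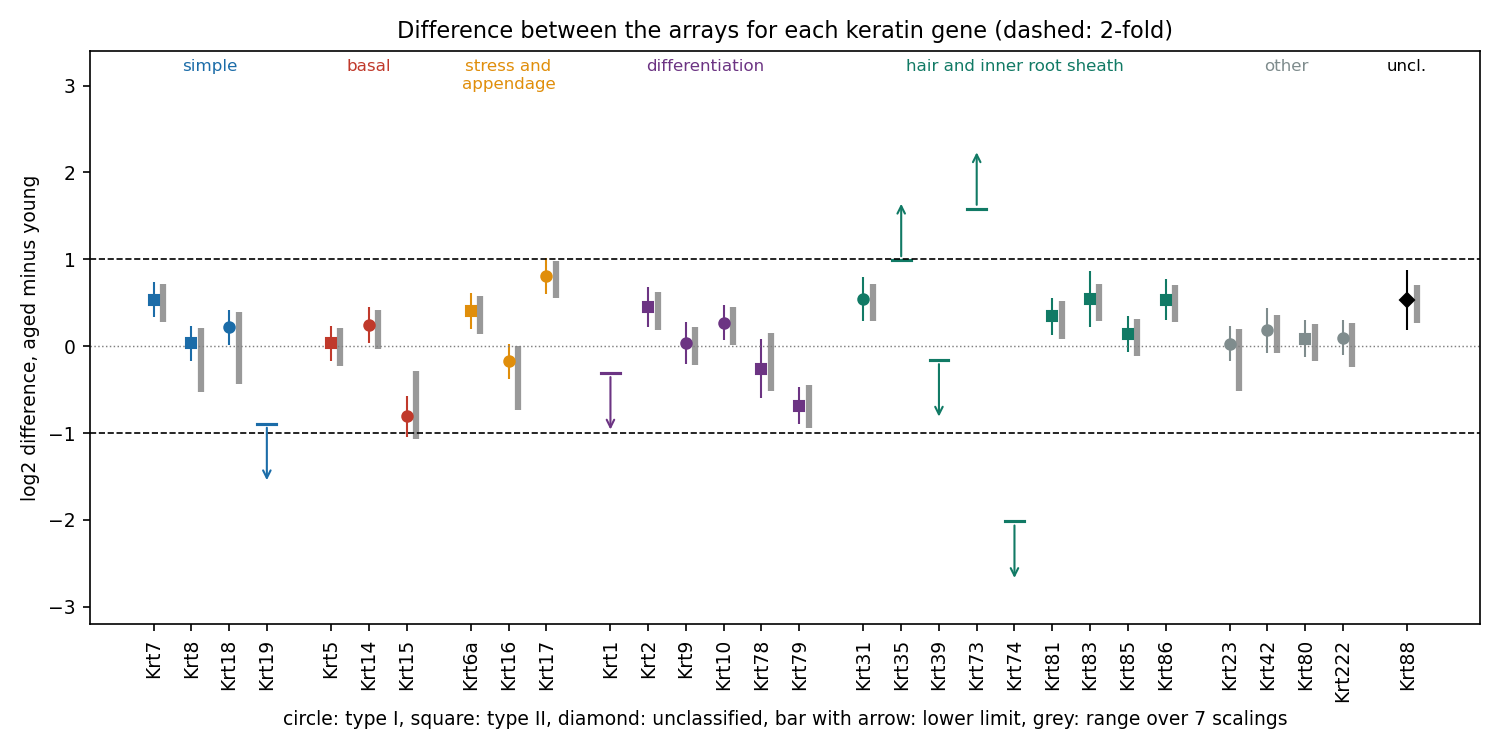
Difference of log2 relative signal, aged minus young (vertical axis), for the same 30 genes by class. Circles are type I, squares type II and a diamond the unclassified Krt88, with the software's error, bars with arrows are lower limits of genes well above background on 1 array, grey bars span the 7 scalings and dashed lines mark 2-fold. All points lie within the dashed lines, Krt15 and Krt17 come nearest to them, and only the limits of Krt73 and Krt74 lie beyond them.

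The hair and inner root sheath keratins made up 24 of the 55 genes and held the changes in detection that passed 2-fold. Krt73, a type II keratin of the inner root sheath, gave 3.74 in young cells, where it was not well above background, and 32.5 in aged cells, where it was. Its limit was at least 2.99-fold higher. Krt35, a type I hair keratin, gave 3.15 and 21.5 and was at least 1.98-fold higher. No other keratins were detected in aged cells alone. Of the 485 such genes in all, 52.6% had a limit of at least 2-fold. Krt74, annotated by RefSeq as a transcribed pseudogene and known as an inner root sheath keratin in other species, gave 74.7 in young and 4.03 in aged cells, not well above background there. It was at least 4.05-fold lower. Krt39 gave 20.6 and 11.5, with a limit of 1.12-fold lower, but its difference of -0.47 ± 0.52 was within its error. Of the 4 keratins on the young array only (Krt1, Krt19, Krt39 and Krt74), Krt74 alone passed 2-fold, and of all 2116 such genes 24.9% did. Krt73 and Krt74 lie close together on chromosome 15, with probes 39.5 kb apart and Krt72, above background on neither array, between them. The limits depend on the background correction: after normexp with an offset of 50 Krt73 was 0.59 and Krt74 -0.64 on the log2 scale, both within 2-fold, and Krt19 was -0.01. The offset, added on both arrays, is larger than most of these signals and draws any difference between dim spots towards 0. The normexp values therefore cannot show whether the limits hold.

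The 5 hair keratins measured on both arrays were all higher on the aged array at the main scaling, with a median of 0.53. Krt31 gave 40.5 in young and 45.6 in aged cells, a difference of 0.54 ± 0.25. Krt83 gave 24.8 and 28.0, a difference of 0.54 ± 0.32. Krt86 gave 54.3 and 60.7, a difference of 0.53 ± 0.24. Krt88, the unclassified gene, gave 23.5 and 26.2, a difference of 0.53 ± 0.35. The 4 genes were dim, between 23.5 and 60.7, and their signals before scaling differed little between the arrays. Division by the 75th percentiles alone adds 0.37 to every difference, and the 18 keratin probes at the software's substitute value on both arrays, which carry no measured signal, came out between 0.34 and 0.40. Krt81 gave 139 and 137, a difference of 0.34 ± 0.21, and Krt85 gave 1055 and 899, a difference of 0.14 ± 0.20 that was -0.06 by loess and -0.12 with the spike-in controls. Krt88, Krt81, Krt86 and Krt83 follow each other on chromosome 15 within 31.7 kb. The other 15 hair and root sheath keratins were above background on neither array: Krt25, Krt26, Krt27, Krt28, Krt32, Krt33a, Krt33b, Krt34, Krt36, Krt40, Krt71, Krt72, Krt82, Krt84 and Krt87.

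Of the keratins outside these classes, 4 of 5 were measured on both arrays and none stood far from 0. Krt23, a type I keratin of glandular and intestinal epithelium, gave 12861 in young and 10133 in aged cells, a difference of 0.03 ± 0.20. Krt222, a keratin-like gene of type I, gave 4300 and 3554, a difference of 0.10 ± 0.20. Krt80, a type II keratin of cell margins, gave 150 and 122, a difference of 0.08 ± 0.21, and 0.25 by its second probe. Krt42 gave 42.0 and 36.8, a difference of 0.18 ± 0.26. Each of these 4 genes was below 0 under at least 1 scaling, down to -0.51 for Krt23 by quantile normalization. Krt90 was above background on neither array.

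By filament type, the 11 type I genes measured on both arrays had a median difference of 0.18 and the 12 type II genes one of 0.24. For the pairs, the type I minus type II gap in difference was 0.41 ± 0.29 for Krt17 against Krt6a, -0.58 ± 0.29 for the brighter Krt16 probe against Krt6a (-1.09 to -0.56 over the 7 scalings), -0.11 ± 0.29 for the second Krt16 probe against Krt6a, -0.18 ± 0.31 for Krt10 against Krt2 and 0.40 ± 0.32 for Krt31 against Krt85. Unlike the differences themselves, these gaps do not change when an array is divided by another constant. By class, the median was 0.21 for 3 simple, 0.03 for 3 basal, 0.40 for 3 stress and appendage, 0.04 for 5 differentiation and 0.53 for 5 hair keratins, all beside 0.09 for all genes. The keratin median stood 0.10 above that of all genes, a gap that scalings by another constant per array cannot change. It was 0.11 by quantile normalization, 0.09 by loess and 0.05 after normexp. The median of all genes itself moved by 0.17 with median centring and by -0.14 with loess. With the 75th percentile of probes above background on both arrays it moved by -0.11, and with the spike-in controls by -0.26. Of the 24 genes, 13 kept their sign under all 7 scalings, 10 above 0 and 3 (Krt15, Krt16 and Krt79) below it.

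**Figure D3:**
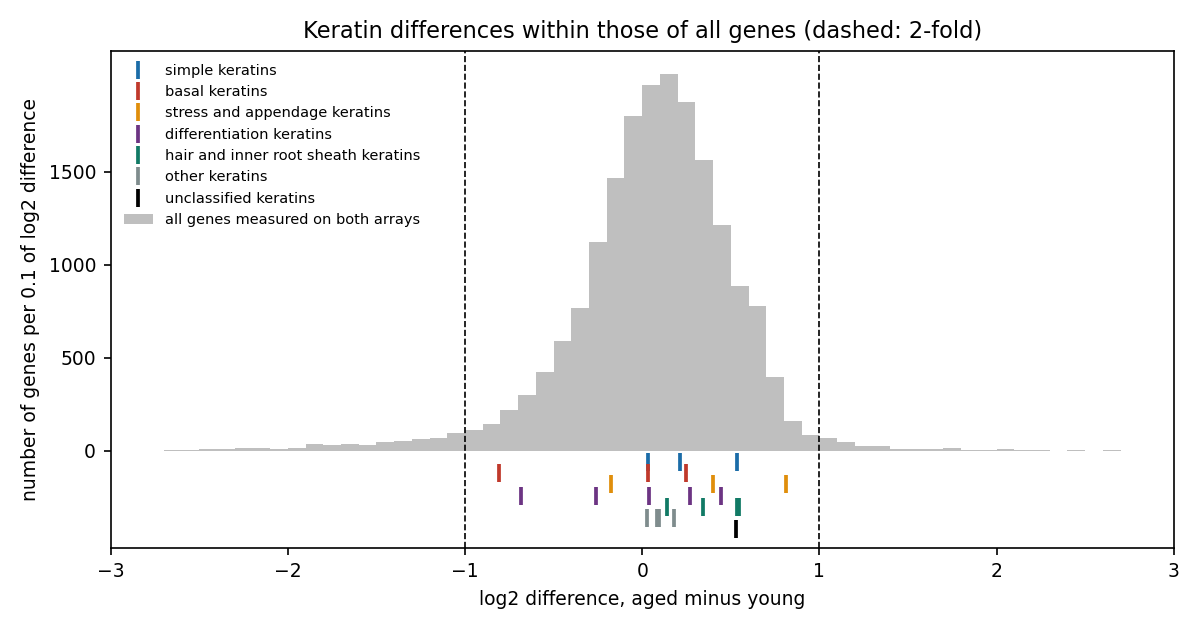
Number of genes (vertical axis) by log2 difference, aged minus young (horizontal axis, in bins of 0.1), for the 18745 genes measured on both arrays, with the 24 keratin genes as ticks under the axis, coloured by class. Dashed lines mark 2-fold, and all keratin ticks lie between them, from -0.81 to 0.81, where the central 95% of all genes ran from -1.11 to 0.82.

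Genes that anchor, regulate or accompany keratin filaments were read next. Of 61 such genes, 52 were measured on both arrays, 0 passed 2-fold upwards and 2 downwards (Vim and Lmnb1), with a median of 0.05. Desmosome genes, which tie keratin filaments to cell junctions, had a median of -0.07 over 9 genes. Dsp, the linker of the filaments to the junction, was -0.09, Perp 0.59, Pkp1 -0.86 and Dsc2 -0.99. Hemidesmosome and plakin genes, some of which hold the filaments to the basement membrane, had a median of -0.04 over 10, with -0.07 for Plec and -0.49 for Itga6. Regulators and binding proteins had a median of 0.20 over 9, with 0.45 for Sfn. Epithelial transcription factors had a median of -0.06 over 15, among them Trp63, the factor of basal cells, at 0.29, Ehf at 0.57 and Grhl1 at -0.35. Among the other intermediate filament genes, 9 of 15 were measured on both arrays. Vim, the filament of mesenchymal and immune cells, went from 3.59 to 1.84 in log2 relative signal, a difference of -1.75, and Lmnb1, a nuclear lamin, differed by -1.05. Lmna differed by 0.14.

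Markers of the cell types that the sort could hold were read beside the keratins. All 8 general epithelial markers were measured on both arrays, none was 2-fold different and their summed relative signal was 62.2 in young and 65.6 in aged cells, with Epcam at 0.20 and Cdh1 at 0.06. All 13 duct markers were measured on both arrays with none past 2-fold and a summed signal of 2626 and 2511. Of the 10 acinar markers Amy1 was 1.23 and Smgc -1.79, and their summed signal was 7133 and 9460. The 8 basal and myoepithelial markers had a median of -0.21 and a summed signal of 65.1 and 69.0. Trp63 (0.29) was the brightest of them. The contractile genes Cnn1 (-2.14), Myh11 (-1.83) and Mylk (-0.97) were lower on the aged array, with Tagln at -0.34 and Acta2 at -0.08. Col17a1 was at 0.23 and Oxtr at 0.10, and Krt5 and Krt14 were at 0.03 and 0.25. The fibroblast list went from a summed signal of 18.6 to 8.70, with Col1a1 at -1.81, Col3a1 at -1.73, Col1a2 at -1.44 and Pdgfra at least 2.45-fold lower. The immune list went from 137 to 56.7, with Lyz2, its brightest member, at -1.91, Cd68 at -1.06 and Csf1r at -0.62. Its members did not move together: Ptprc was at -0.21 and Cd3e, higher on the aged array, at 0.56. The 5 endothelial markers had none past 2-fold and a summed signal of 4.57 and 3.20. The lower Vim signal came with these lists, and their part in it was not tested.

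For the hair and epidermal keratins, markers of skin were read in the same way. Of 9 hair follicle markers, 2 were well above background on both arrays, Krtap4-1 at -0.10 and Tchh at -0.31, and the summed signal was 0.548 and 0.481. The other 7, among them the hair shaft genes Krtap3-1, Krtap8-1 and Krtap11-1 and the hair keratin regulator Hoxc13, were above background on neither array. Of 11 squamous markers on the array, 5 were measured on both, 3 on the young array only and 3 (Ivl, Sprr1b and Sprr3) on neither, with Dmkn at 1.33 and Sprr1a at -1.004, and the summed signal was 4.83 and 3.72. Of 5 mesothelial markers, 2 were measured on both arrays, Msln at 0.86 and Wt1 at 0.83, 1 on the young array only (Upk1b, at least 1.26-fold lower) and 2 on neither, with a summed signal of 0.516 and 0.787. The part of such cells in the keratin signals was not tested.

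**Figure D4:**
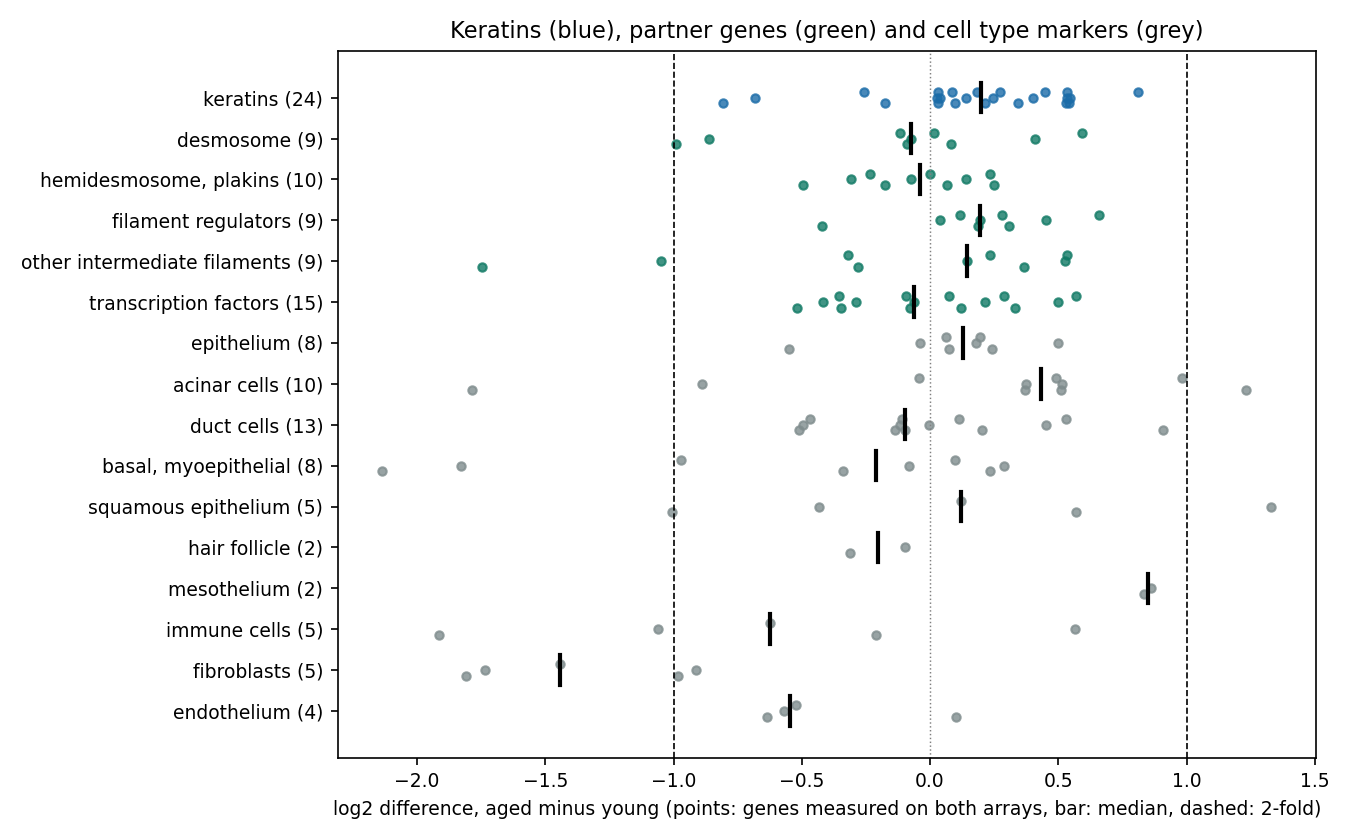
Difference of log2 relative signal, aged minus young (horizontal axis), of each gene measured on both arrays, for the 24 keratins (blue), the lists of genes that work with keratins (green) and the cell type markers (grey). The number of genes is in brackets, black bars are medians and dashed lines mark 2-fold. The keratin median is 0.20, beside 0.20 for filament regulators, 0.14 for other intermediate filament genes, 0.13 for epithelial markers and 0.12 for squamous markers. The fibroblast median lies lowest at -1.44.

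The keratin promoters were also searched for the TATA box, a motif that places the start of transcription. RefSeq start sites on GRCm38.p6 matched 36 of the 55 keratin genes. The letters TATAA were searched on the gene's strand, wholly within 50 to 16 bases before the start. They were found for 19 of 36 keratin genes (52.8%), against 5.07% of all 27025 genes with a promoter. A gene was counted if any of its promoters held them. On the opposite strand in the same window the shares were 2.78% and 2.58%. By type, 15 of 21 type I genes (71.4%) and 4 of 15 type II genes (26.7%) held them, and 12 of 16 hair and root sheath genes. The GC box GGGCGG, searched on either strand over 250 bases, was found for 5.56% of keratin genes and 35.4% of all. Of the 15 matched genes detected on at least 1 array, 6 held TATAA (40.0%), and of the 21 above background on neither array 13 (61.9%). The genes of a family share ancestry and are not independent of each other, so these shares are a description.

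The 60 bases before the start are shown for Krt10 and Krt73, which hold the motif, and for the pair Krt8 and Krt18 of the gland's own filaments. Capitals mark TATAA within the searched window.
Krt10 upstream (GRCm38.p6, chr11:99389365-99389424, - strand): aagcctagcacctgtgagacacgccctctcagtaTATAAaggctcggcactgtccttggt
Krt73 upstream (GRCm38.p6, chr15:101802361-101802420, - strand): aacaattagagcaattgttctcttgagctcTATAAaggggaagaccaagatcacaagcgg
Krt8 upstream (GRCm38.p6, chr15:102004343-102004402, - strand): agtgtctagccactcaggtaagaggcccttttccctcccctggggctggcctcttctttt
Krt18 upstream (GRCm38.p6, chr15:102028156-102028215, + strand): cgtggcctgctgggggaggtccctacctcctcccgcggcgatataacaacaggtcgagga
In Krt10 the motif starts 26 bases before the start site and in Krt73 30 bases. The Krt18 sequence also holds these letters, from 19 to 15 bases before the annotated start, which is 1 base outside the searched window, so it is not among the 19. In these 60 bases of Krt8 the letters do not occur. A match is not evidence that the site is used.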

How the data were processed

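Epithelial cells of the submandibular gland were measured on 1 Agilent array for each age. Per the file headers, the authors' scanner software, Feature Extraction 12.0.3.1, wrote each spot's intensity after subtraction of a fitted background and correction of trends, with no scaling between arrays. Where no signal could be measured it wrote a small substitute value. The deposited value table, made by the authors in GeneSpring, holds the same intensity divided by a constant per array, 229 (young) and 176 (aged), for 62976 of 62976 spots within 0.1%.

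Here, log2 intensity minus the log2 of the 75th percentile over 59305 non-control spots was used. Spots marked as outliers on either array (90 young, 93 aged) were left out, no spot was saturated, and repeated spots were averaged per probe. Probes had to be well above background for at least 1 age, and each gene was read through the brightest of them by mean log2 signal. Where a probe was well above background on 1 array only, the fold is a lower limit, set against the other array. The value used there is the higher of that other array's lowest signal well above background (14.1 young, 14.3 aged) and the probe's own value on it. Such a limit is a point value and does not include the scanner software's error. Of all non-control spots, 55.4% (young) and 50.8% (aged) were well above background. The arrays carried 285 probes in repeated spots measured on both, whose difference had a median standard deviation of 0.034 over spots. The number of arrays, 1 per age, limits the precision.

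Gene names of other genes were updated through RefSeq accessions (GRCm38.p6, names only), and probe coordinates are those of the files (mm9). All keratins detected on at least 1 array were named with both values, partner genes past 2-fold with up to 3 examples per role, and markers past 2-fold, except 1 marker and 1 probe sequence that are not reported here. The members, lists and thresholds were chosen with earlier results of these data known. Alternatives were 6 other scalings or background corrections, the authors' table, the filters on dim probes, outlier spots kept, and the mean or second probe of a gene. R 4.3.3 with limma 3.58.1 gave quantile normalization, loess (span 0.7, 3 iterations) and normexp (offset 50), and Python 3.11.15, numpy 2.4.6, pandas 2.3.3 and matplotlib 3.10.9 the rest. The steps were tested on simulated data with changes placed in bright genes and read where measured on both arrays. That test did not cover the lower limits or changes in dim genes. No RefSeq promoter was matched for 19 keratins.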

Additional observations from a re-analysis of the deposited data

How the results depend on the processing

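With 1 array per age, no alternative can show how the keratins vary between mice, and the dim keratins are limited by signal over background. Medians of classes rest on 3 to 5 genes. No paired analysis was possible because each age has 1 array. The count of keratins at least 2-fold higher among those measured was 0 and became 6 with no filter on dim probes and 2 with values as they stand for genes above background on at least 1 array. The count at least 2-fold lower was 0 and became 2 under each of these filters and 1 with the spike-in controls. The count at least 2-fold higher by a limit was 1 and became 2 with median centring and quantile normalization, and 0 with normexp and with the second brightest probe. The count lower by a limit was 1 and became 2 with the 75th percentile of probes above background on both arrays and with the spike-in controls, and 0 with normexp and with the second brightest probe. The 2 looser filters admit values below background, and the offset added in normexp draws the limits of dim probes towards 0. None of the 6 genes with a limit has a second kept probe, so the counts of 0 by the second brightest probe are fixed and say nothing of the limits. With the spike-in controls the median was -0.23 for basal, -0.22 for differentiation, 0.28 for hair and root sheath, -0.043 for simple, 0.14 for stress and appendage, -0.077 for type I and -0.015 for type II keratins, a shift of -0.26 common to all genes. With loess it was -0.19 for basal, -0.44 for simple and -0.033 for type I keratins, and with quantile normalization -0.30 for simple keratins, and the cause was not tested. The simple median was -0.016 by the second brightest probe of Krt8, and the stress and appendage median 0.13 with no filter. Of the other values of these counts and medians under the alternatives, 97 stayed close to the main value, and of those of single genes 270 did and 41 moved. Many of these values could not move. For genes measured on both arrays, keeping outlier spots or dim probes returned the main value, and the authors' table differs only by a constant. Close meant within the propagated error for a single gene, so these tallies do not measure stability.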
